A study of Mus musculus with 12 samples.

Results

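Hepatokines are proteins that hepatocytes secrete and that act on other organs. The transcripts of 9 of them were followed in mouse liver: Fgf21, Fetub, Ahsg, Angptl4, Angptl6, Angptl8, Inhbe, Lect2 and Enho. They were taken by gene name, and all 9 were found among the 20775 genes listed for the chow livers and the 22709 listed for the livers of the other diet, of which 20093 were in both lists. Bulk RNA-seq had been made of 12 liver samples of male C57BL/6N mice, 3 in each of 4 groups. The mice of all groups carried floxed alleles of Elavl1, the gene of the RNA-binding protein HuR, and the labels give an age of 4 to 6 months when a virus was injected. Mice labelled HuRHep-/- had received AAV8-Tbg-Cre, in which a hepatocyte promoter drives Cre, and mice labelled WT had received AAV8-Tbg-null. Livers of both genotypes were taken on normal chow or after 16 weeks on a diet called HFCF, with 40% of its energy from fat and 20% from fructose, and with 2% cholesterol. The methods of the study describe albumin-Cre mice of another age in place of the virus, and the counts do not show which description holds. The labels do not say how long the chow mice were kept or whether food was withdrawn before the livers were taken.

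FGF21 is a hormone that acts through beta-Klotho and FGF receptors on fat tissue and brain. It is known to be induced in liver by PPARalpha in fasting, by ATF4 under amino acid shortage and by ChREBP after sugar. The angiopoietin-like proteins ANGPTL4 and ANGPTL8 inhibit lipoprotein lipase, ANGPTL4 mainly in fasting and ANGPTL8 after feeding. ANGPTL6 is known as angiopoietin-related growth factor. Fetuin-A (Ahsg) and fetuin-B (Fetub) are plasma proteins of the cystatin superfamily, of which fetuin-A carries mineral and can inhibit the insulin receptor. Inhbe encodes the activin E subunit, Lect2 a plasma protein first described as a chemotactic factor, and Enho the peptide adropin. HuR binds U-rich and AU-rich stretches, mostly in the 3' untranslated region (3' UTR), and is known to stabilise many of the transcripts it binds.

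The targeted gene went against the labels. Elavl1 had 938, 876 and 948 counts in chow WT, and 1475, 1265 and 1261 in chow HuRHep-/-. The HFCF livers held 904, 791 and 849 counts in WT, and 1299, 1242 and 1271 in HuRHep-/-. All livers labelled HuRHep-/- thus lay above all livers labelled WT of the same diet, with log2 fold changes of 0.41 in chow (SE 0.068, adjusted p = 0.0219, limma) and 0.38 in HFCF (SE 0.072, adjusted p = 0.0327, limma). With 1 library left out the log2 fold change of Elavl1 stayed between 0.36 and 0.45, but it did not pass in chow without WT replicate 1 or 3 or HuRHep-/- replicate 1 or 2 (adjusted p = 0.0725, 0.0738, 0.0816 and 0.105, limma). In HFCF Elavl1 passed only without WT replicate 3, and the adjusted p ran from 0.0534 to 0.121 without any other library (limma). The counts are given per gene and not per exon, so a loss of some exons cannot be read from them. By qPCR, and not from these counts, the study reports efficient HuR depletion in the knockout livers of its acetaminophen experiment. The labels alone set the direction of every genotype difference, and "HuRHep-/-" below stands for the livers labelled so. Total counts per library ran from 30071731 to 35949203. Values are CPM (each count divided by the library total after TMM scaling), or RPKM, the same per kilobase of exon, where genes are set beside each other. A gene passed the test when its Benjamini-Hochberg adjusted p over all genes was at most 0.05, and was called when its fold change was also at least 1.5.

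The tissue markers fitted liver. Of 9 hepatocyte markers, 8 were found under the symbols searched, and their summed level ran from 105356 to 128194 CPM in chow WT, from 83916 to 93730 in chow HuRHep-/-, from 74758 to 85739 in HFCF WT and from 65632 to 70837 in HFCF HuRHep-/-. Of these 8 markers 0 passed between genotypes in chow and 2 fell in HFCF, with medians over the 8 of -0.26 and -0.25 on the log2 scale, beside 0.005 and -0.002 over all genes. The share of all genes that passed between genotypes, in either direction, was 4.23% in chow and 6.79% in HFCF. Between diets 4 fell in WT and 6 in HuRHep-/-, with medians over the 8 of -0.52 and -0.48 on the log2 scale, beside 0.010 and 0.002 over all genes. The share of all genes that fell was 12.8% in WT and 19.1% in HuRHep-/-. Markers of recruited macrophages moved the other way, from 56.3 to 63.9 CPM in chow WT against 178 to 234 CPM in HFCF HuRHep-/-. Cholangiocyte markers summed to between 132 and 241 CPM in HFCF HuRHep-/- and to between 35.1 and 87.3 CPM in the other groups. In bulk liver, fewer cells of a type and less RNA per cell cannot be told apart. Between diets, 4 of 6 recruited macrophage markers, 3 of 9 Kupffer cell, 2 of 6 stellate cell, 0 of 5 cholangiocyte, 0 of 5 lymphocyte and 0 of 6 sinusoidal endothelial markers rose in WT, and 6, 5, 6, 5, 3 and 1 of these rose in HuRHep-/-. The share of all genes that rose was 11.3% in WT and 19.7% in HuRHep-/-. Between genotypes, 2 of 5 cholangiocyte and 1 of 6 recruited macrophage markers rose in HFCF, and 0 of any of these lists passed in chow. Adipoq and Plin1, which define fat cells, had at most 5 counts in any library. The summed level of 5 fat cell markers ran from 0.0308 to 0.261 CPM in chow and from 7.39 to 109 CPM in HFCF, where nearly all of it was Cidea, which is also known from fat-laden hepatocytes. Apart from that, the part of other cell types in the results that follow was not tested.

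The 9 transcripts spanned a wide range of levels. In chow WT, Ahsg was the highest at 3515 ± 381 RPKM (SD, n = 3), followed by Fetub at 330 ± 7.27 RPKM and Lect2 at 99.5 ± 12.8 RPKM. Angptl8 and Angptl4 came next at 47.5 ± 26.8 and 46.3 ± 6.99 RPKM, and did not differ beyond their spread. Enho stood at 12 ± 3.83 RPKM, Inhbe at 7.79 ± 1.69 RPKM and Angptl6 at 6.69 ± 0.619 RPKM, and neither Enho and Inhbe nor Inhbe and Angptl6 differed beyond their spread. Fgf21 was the lowest at 1.7 ± 0.677 RPKM, from 26 to 61 counts per library, so that counting error weighs most on it. The Inhbe value per kilobase rests on a GENCODE transcript of 5319 exonic bases that starts upstream of the RefSeq start. In HFCF WT the order at the low end changed: Fgf21 reached 6.07 ± 2.65 RPKM and Enho was the lowest of the 9 at 1.51 ± 0.715 RPKM.

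**Figure D1:**
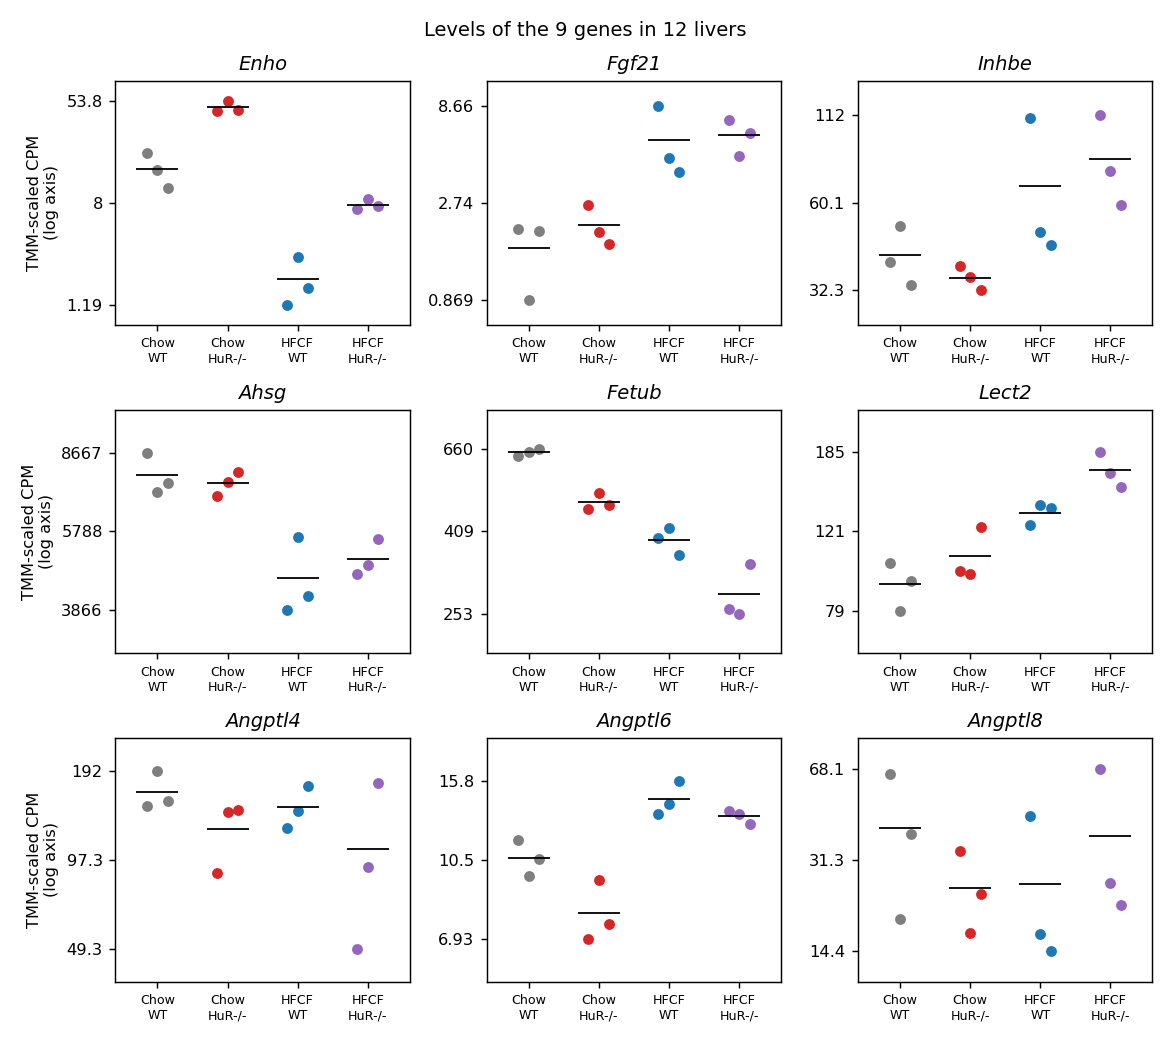
TMM-scaled CPM (log axis, range set per gene) of the 9 genes in each of 12 liver samples, with 1 point per library and a line at the mean of the 3 libraries of a group. HuR-/- stands for HuRHep-/-. Enho separates all 4 groups, from 1.19 to 53.8 CPM, while the groups of Angptl8 overlap throughout.

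Enho differed most between the genotypes. This gene (ENSMUSG00000028445) is encoded on the minus strand of chromosome 4 of GRCm38, from 41638144 to 41640324, in 2 exons. In chow, Enho had 616, 440 and 324 counts in WT and 1533, 1738 and 1483 counts in HuRHep-/-. The highest WT liver therefore held fewer than any HuRHep-/- liver. The means were 15.2 ± 4.86 CPM and 48 ± 5.1 CPM (SD, n = 3 each), a 3.27-fold higher level in HuRHep-/- (log2 fold change 1.71, SE 0.21, 95% confidence interval 1.22 to 2.20, adjusted p = 0.011, limma). In HFCF, Enho had 45, 96 and 51 counts in WT and 287, 331 and 280 counts in HuRHep-/-. Again the groups did not overlap, with means of 1.91 ± 0.907 and 7.76 ± 0.737 CPM (SD, n = 3 each), a 4.27-fold higher level (log2 fold change 2.09, SE 0.31, 95% confidence interval 1.37 to 2.82, adjusted p = 0.0196, limma). When libraries were left out, 1 at a time, its log2 fold change lay between 1.47 and 1.94 in chow and between 1.82 and 2.45 in HFCF. Its adjusted p from limma then passed 0.05 without chow HuRHep-/- replicate 2 (0.0655, where 8 genes of all were called), without HFCF WT replicate 1 (0.0506) and without HFCF HuRHep-/- replicate 1, 2 or 3 (0.0915, 0.0861 and 0.0668).

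Enho was the only member called between genotypes in either diet, at a background of 2.24% of 13526 genes in chow and 3.62% of 14295 genes in HFCF. Without the fold minimum, 2 of 9 members passed in chow (background 4.23%) and 1 of 9 in HFCF (background 6.79%). The second in chow was Fetub. Enho carries 0 AU-rich pentamers (ATTTA in DNA letters) in its annotated 3' UTR of 468 bases. Among 1690 genes with a 3' UTR of 0.8 to 1.25 times that length, 46.6% hold the pentamer.

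Dnaic1 is the neighbour at the end of Enho. This gene, which encodes a dynein chain of motile cilia, lies on the opposite strand, and its last exon shares 15 bases with the last exon of Enho. The last 30 bases of the Enho transcript (chr4:41638144-41638173, minus strand, GENCODE) are shown because they are where the genes meet, with the 15 shared bases in capitals.
Enho end: gaaaacaaataaaggTAGGAGGTGAGTGTC
Dnaic1 had 6, 5 and 3 counts in chow WT and 59, 89 and 60 counts in chow HuRHep-/-, without overlap. Dnaic1 met the filter on low counts in chow only through the HuRHep-/- libraries, so its log2 fold change of 3.66 (SE 0.36) is given as a description, with no test. It had 1, 1 and 0 counts in HFCF WT and 7, 9 and 5 in HFCF HuRHep-/-, too few for the test within HFCF. Set against Enho, the summed Dnaic1 counts came to 1.01% in chow WT, 4.38% in chow HuRHep-/-, 1.04% in HFCF WT and 2.34% in HFCF HuRHep-/-. The libraries were made with a stranded kit and counted on the reverse strand, and Dnaic1 counts came to at most 5.12% of the Enho counts in a library. Whether Dnaic1 reads come from its own promoter was not tested. Gm12406, an antisense transcript over the start of Enho, had at most 7 counts in any library.

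**Figure D2:**
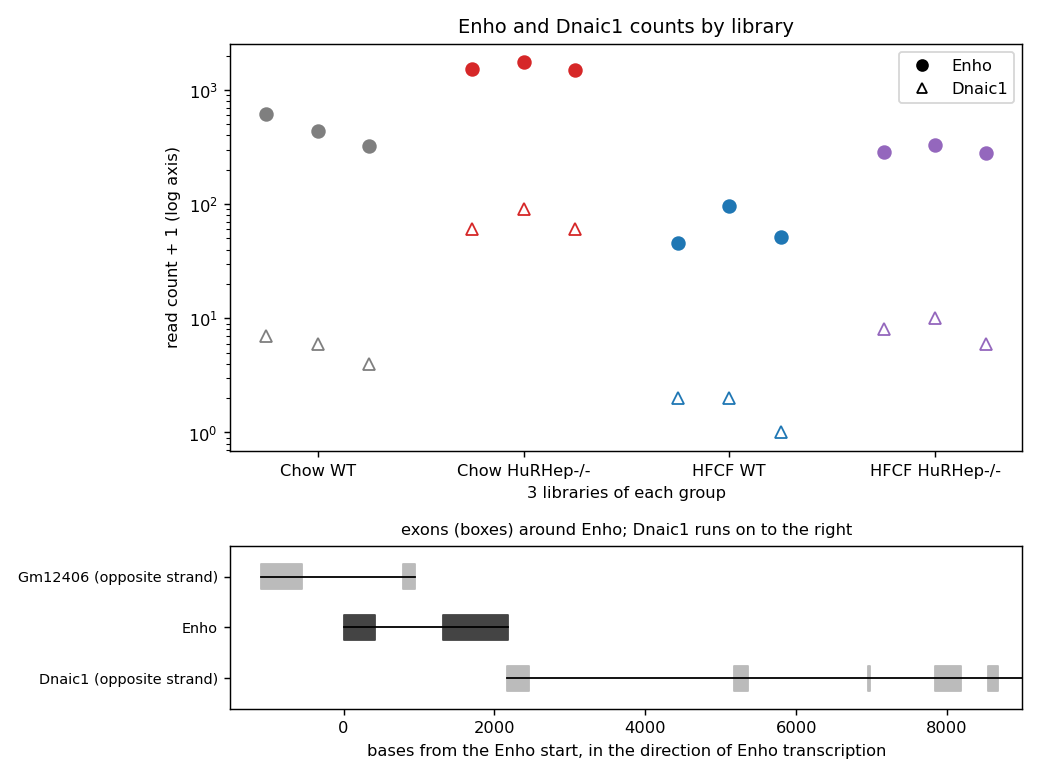
Upper panel: counts of Enho (filled circles) and Dnaic1 (open triangles) plus 1 on a log axis in the 12 libraries, coloured by group. Lower panel: exons as boxes against the distance in bases from the Enho start. Both genes are higher in the livers labelled HuRHep-/- and lower in HFCF, and they meet end to end on opposite strands.

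Enho was lower on the HFCF diet in both genotypes. Against chow, Enho was 8.18-fold lower in HFCF WT (log2 fold change -3.03, SE 0.29, adjusted p = 0.000151, limma) and 6.17-fold lower in HFCF HuRHep-/- (log2 fold change -2.62, SE 0.29, adjusted p = 0.000166, limma). In WT it ranked 11 from the lowest log2 fold change among 14535 genes, and in HuRHep-/- it ranked 59. The chow and HFCF livers came in separate tables, so diet, time on diet and any batch of library making cannot be told apart, here and in the other diet results. The genotype difference on the log2 scale was 0.41 larger in HFCF than in chow, with an interval of -0.48 to 1.30 (adjusted p = 0.683, limma). The genes whose log2 CPM ran most like that of Enho over the 12 libraries were Notum, a secreted Wnt inhibitor (Pearson r = 0.984), and Apom, an apolipoprotein (r = 0.975), out of 10185 genes searched. These correlations are descriptions, since the libraries share the same groups and tables.

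Between diets, in WT, 3 of 9 members rose (background 11.3% of 14535 genes) and 3 fell (background 12.8%), and 4 were called (background 9.38%). In HuRHep-/-, 4 of 9 rose (background 19.7%) and 3 fell (background 19.1%), and 6 were called (background 19.1%). The 4 called in WT were Fgf21, which rose, and Enho, Ahsg and Fetub, which fell. In HuRHep-/-, Fgf21, Inhbe, Angptl6 and Lect2 rose and Enho and Fetub fell past 1.5-fold, and Ahsg fell by less. Angptl4 and Angptl8 passed in neither.

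**Figure D3:**
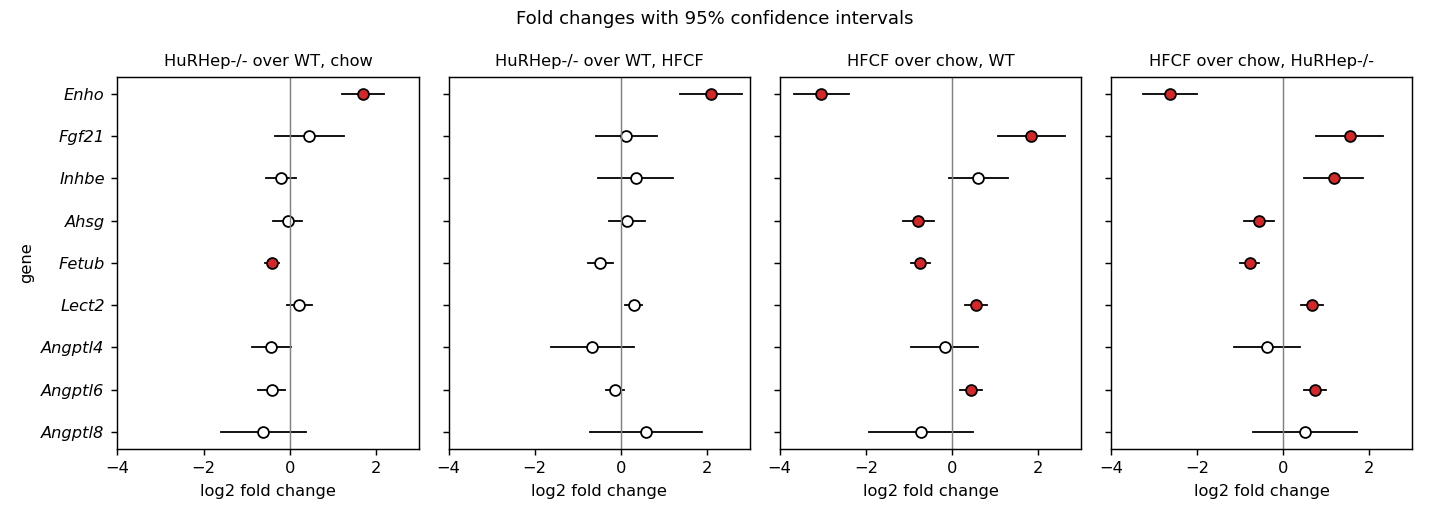
Log2 fold change of each gene with its 95% confidence interval in the 4 comparisons, with filled points where the adjusted p was at most 0.05. Between genotypes Enho passed in both diets and Fetub in chow (4.23% of all genes in chow and 6.79% in HFCF). Between diets 3 of the 9 rose and 3 fell in WT (11.3% and 12.8% of all genes). In HuRHep-/- 4 rose and 3 fell (19.7% and 19.1% of all genes).

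Fgf21 (ENSMUSG00000030827), the hormone of the set, rose with the diet in both genotypes. It lies on the minus strand of chromosome 7, from 45613886 to 45615490, in 3 exons. It had 61, 26 and 60 counts in chow WT and 92, 63 and 55 counts in chow HuRHep-/-. In HFCF it had 328, 154 and 125 counts in WT and 294, 184 and 234 counts in HuRHep-/-, each above all chow livers. Fgf21 was 3.58-fold higher in HFCF than in chow in WT (log2 fold change 1.84, SE 0.35, adjusted p = 0.00435, limma) and 2.91-fold in HuRHep-/- (log2 fold change 1.54, SE 0.35, adjusted p = 0.00606, limma). Between genotypes the groups overlapped in both diets. The log2 fold change was 0.45 in chow (95% confidence interval -0.35 to 1.26) and 0.13 in HFCF (95% confidence interval -0.58 to 0.85), with adjusted p of 0.465 and 0.804 (limma). The genes most like Fgf21 over the 12 libraries were Notch1 (Pearson r = 0.981) and Plscr1 (r = 0.942).

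Of the 9 transcripts, Fgf21 carried the densest AU-rich sequence. Its 3' UTR of 134 bases was 72.4% A and T and held 4 ATTTA pentamers, where 19.1% of 619 genes with a 3' UTR of like length hold any. The windows around the pentamers at bases 43, 56 and 65 of the 3' UTR are shown because HuR is known for such stretches, with the pentamer in capitals.
Fgf21 site 43: gggtttccacttATTTAttacgggtattt
Fgf21 site 56: tttattacgggtATTTAtcttatttattt
Fgf21 site 65: ggtatttatcttATTTAtttattttagtt
The fourth, at base 69, overlaps the third. Inhbe held 3 pentamers in 1400 bases of 3' UTR and Angptl4 held 1 in 1637 bases, lengths at which 82.5% and 86.1% of genes hold them. Fetub, Ahsg, Angptl6, Angptl8, Lect2 and Enho held 0. Of U-rich stretches, windows of 7 T numbered 4 in Angptl4, 3 in Fgf21 and 1 in Enho, and 0 in the other members. These windows were counted with overlap, so several can lie in 1 longer run. A pentamer or run is a match of letters and not a bound site.

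Inhbe (ENSMUSG00000047492; chromosome 10, 127348857 to 127354411, minus strand, 2 exons), the activin E subunit, had 1200, 1531 and 1027 counts in chow WT and 1320, 1150 and 1050 counts in chow HuRHep-/-. In HFCF WT it had 4169, 1599 and 1407 counts, so that replicate 1 stood at 110 CPM and the others at 48.8 and 44.7 CPM. In HFCF HuRHep-/- it had 4477, 2917 and 2204 counts, all above the chow livers of that genotype. Inhbe was 2.25-fold higher in HFCF than in chow in HuRHep-/- (log2 fold change 1.17, SE 0.31, adjusted p = 0.0124, limma), and without HFCF HuRHep-/- replicate 1 the adjusted p was 0.0543 at a log2 fold change of 0.92. In WT the log2 fold change of 0.61 did not pass (95% confidence interval -0.07 to 1.29, adjusted p = 0.175, limma), and the difference between the genotypes in this response was 0.56 (95% confidence interval -0.40 to 1.52, adjusted p = 0.587, limma). Inhbc, its neighbour on the same strand and the subunit of activin C, stood at 50 ± 6.76 CPM in chow WT and 53.3 ± 4.69 CPM in HFCF WT (SD, n = 3 each), and passed in none of the 4 comparisons. Over the 12 libraries, Xpo1 (Pearson r = 0.926) and Gadd45a (r = 0.925) were most like Inhbe.

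Angptl8 had the largest coefficient of variation of the 9 members in each of the 4 groups, from 34.5% to 67.7% of the mean CPM. This gene (ENSMUSG00000047822; chromosome 9, 21835510 to 21837347, plus strand, 4 exons) lies inside Dock6 on the opposite strand, with 0 exonic bases shared. It had 1982, 568 and 1193 counts in chow WT and 1163, 544 and 759 in chow HuRHep-/-. On the diet it had 1718, 547 and 452 counts in WT and 2733, 996 and 792 in HuRHep-/-. The highest library of a group held between 2 and 3.43 times the CPM of the lowest, and no pair of groups was separate. The log2 fold changes ran from -0.72 (diet in WT, 95% confidence interval -1.92 to 0.49) to 0.58 (genotype in HFCF, 95% confidence interval -0.72 to 1.88), with adjusted p from 0.369 to 0.515 (limma), and each of the 4 intervals included changes of over 2-fold. The response to diet differed between the genotypes by 1.22 on the log2 scale, the largest such value among the members, with an interval of -0.49 to 2.92 (adjusted p = 0.499, limma). Over the 12 libraries the genes most like it were Med11 (Pearson r = 0.823) and Rassf7 (r = 0.817), lower values than for the other members.

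Angptl4 (ENSMUSG00000002289; chromosome 17, 33773750 to 33781830, minus strand) had 4459, 5748 and 4664 counts in chow WT and 3044, 4514 and 4620 in chow HuRHep-/-. Its HFCF counts were 4706, 4621 and 5397 in WT and 1978, 3545 and 6486 in HuRHep-/-, where the highest liver held 3.54 times the CPM of the lowest. In chow the CPM of the genotypes did not overlap, with a log2 fold change of -0.43 that did not pass (95% confidence interval -0.87 to 0.02, adjusted p = 0.229, limma). In HFCF the groups overlapped (log2 fold change -0.66, 95% confidence interval -1.61 to 0.30, adjusted p = 0.317, limma). Between diets the log2 fold change was -0.17 in WT and -0.38 in HuRHep-/- (adjusted p = 0.755 and 0.416, limma). Without HFCF HuRHep-/- replicate 3 the latter became -0.84 (adjusted p = 0.0372, limma), and without replicate 1 it became 0.07, so that 1 liver decides it. Snrk (Pearson r = 0.891) and Aifm2 (r = 0.876) were the genes most like Angptl4.

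In 4 of 4 groups the library with the most Angptl8 had the least Angptl4, and it was also the library with the most Fgf21. It had the most Inhbe in 3 of 4 groups. In chow WT the next library was close, with 60 counts of Fgf21 beside 61 and with 152 CPM of Angptl4 beside 147. In HFCF HuRHep-/- that library stood 1.02 above the group mean of log2 CPM in Angptl8, 0.49 above in Inhbe and 0.28 above in Fgf21, and at -0.91 in Angptl4. In HFCF WT the deviations were 1.03, 0.82 and 0.67, with -0.22 in Angptl4. In chow WT the library stood at 0.84 in Angptl8 and 0.41 in Fgf21 and at -0.15 in Angptl4, and Inhbe was highest in another liver. It was replicate 1 in 4 of 4 groups, although same-numbered libraries did not deviate together over all genes (correlations of -0.135 to 0.188). With 3 libraries in a group this was seen in the values and not tested, and feeding before collection, which the labels do not give, was not tested.

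**Figure D4:**
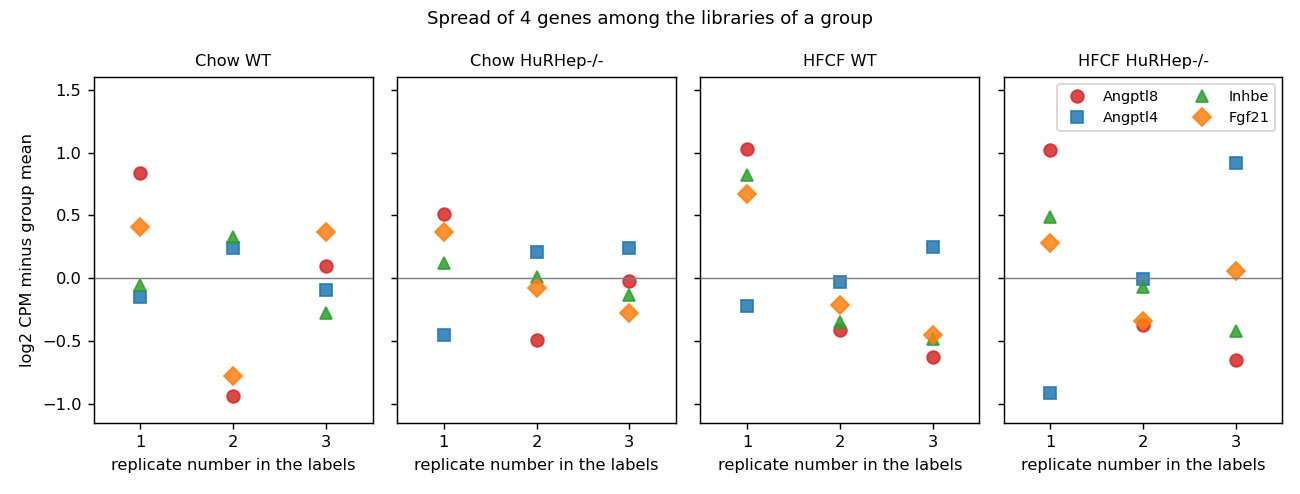
Log2 CPM minus the mean of the group for Angptl8, Angptl4, Inhbe and Fgf21, with 1 panel per group and the libraries in the order of their replicate numbers. In each panel the library highest in Angptl8 is lowest in Angptl4 and highest in Fgf21.

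Fgf21, Angptl8 and Inhbe share a stretch in their RefSeq promoters (250 bases before to 50 after the start, GRCm38.p6), which were given for 7 of the 9 members. For Angptl4 and Enho no promoter was given, so no motif was looked for in them. The motif TGATGNAA, the composite element that C/EBP and ATF factors including ATF4 are known to bind, occurred on either strand in 3 of the 7, and in 4.51% of the 27025 genes with a promoter. It was looked for after the values had been seen. The 250 bases before each start are shown in the direction of the gene because the library highest in Angptl8 was also highest in Fgf21 in 4 of 4 groups and in Inhbe in 3 of 4, with the matches in capitals, at -139 in Fgf21, -130 in Angptl8 and -181 in Inhbe.
Fgf21 (chr7:45615491-45615740, minus strand): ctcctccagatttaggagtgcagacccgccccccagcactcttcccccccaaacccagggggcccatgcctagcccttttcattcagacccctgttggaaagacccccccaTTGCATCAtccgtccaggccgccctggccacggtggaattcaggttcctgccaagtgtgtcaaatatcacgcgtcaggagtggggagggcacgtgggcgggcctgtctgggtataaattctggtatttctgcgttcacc
Angptl8 (chr9:21835260-21835509, plus strand): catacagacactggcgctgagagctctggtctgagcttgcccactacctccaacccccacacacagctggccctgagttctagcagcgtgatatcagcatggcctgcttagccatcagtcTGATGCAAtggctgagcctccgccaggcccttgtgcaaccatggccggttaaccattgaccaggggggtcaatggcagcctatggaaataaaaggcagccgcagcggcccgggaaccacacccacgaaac
Inhbe (chr10:127351849-127352098, minus strand): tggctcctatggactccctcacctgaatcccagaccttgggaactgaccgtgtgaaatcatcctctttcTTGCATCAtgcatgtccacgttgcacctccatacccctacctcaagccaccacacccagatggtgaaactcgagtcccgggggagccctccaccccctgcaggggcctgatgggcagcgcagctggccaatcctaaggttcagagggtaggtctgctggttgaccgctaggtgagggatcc
Fgf21 also held the E-box CACGTG at -50 (8.09% of genes hold it), and TATAAA at -28, as did Fetub at -31 (15.7% of genes). These matches do not overlap each other. The STAT motif TTCNNNGAA (9.55% of genes) and the DR1 motif of PPARalpha (0.0481% of genes) were found in 0 of the 7. A match is a description of letters in this window and not a site.

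Genes of the pathways around the members were read from lists of names. The counts of these lists stand beside 4.23% of all genes that passed between genotypes in chow and 6.79% in HFCF, and beside 11.3% higher and 12.8% lower with diet in WT and 19.7% higher and 19.1% lower in HuRHep-/-. Of 23 results between genotypes for genes called from these lists and the marker lists, 22 did not pass without at least 1 of the libraries, and of 74 results between diets 17 did not. With diet, genes known as targets of ATF4 and the integrated stress response moved in both directions. Of 17 tested in chow 0 passed between genotypes, and of 18 tested in HFCF 1 rose, Atf5, by 1.6-fold (log2 fold change 0.68, SE 0.09, adjusted p = 0.0189, limma). With diet, 1 of 18 rose and 4 fell in WT, and 6 rose and 4 fell in HuRHep-/-, with medians of 0.33 and 0.39 on the log2 scale. Asns, which makes asparagine and is a well-known ATF4 target, fell 5.85-fold in WT and 6.16-fold in HuRHep-/- (adjusted p = 0.00559 and 0.00279, limma). Its HFCF counts were low, with 41, 10 and 12 in WT and 29, 24 and 36 in HuRHep-/-. In HuRHep-/- the VLDL receptor gene Vldlr rose 6.91-fold (adjusted p = 0.00091, limma), the stress factor Atf3 rose 6.8-fold (adjusted p = 0.0052, limma) and Nupr1 rose 3.86-fold (adjusted p = 0.00138, limma). The chow HuRHep-/- counts were low, with 24, 8 and 20 for Vldlr, 24, 49 and 53 for Atf3 and 25, 34 and 16 for Nupr1.

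With diet, of 22 lipogenic genes under ChREBP, LXR and SREBP-1c, 9 rose and 0 fell in WT, with a median of 0.59 on the log2 scale, and 14 rose and 0 fell in HuRHep-/-, with a median of 0.69. Over all tested genes the medians were 0.010 and 0.002. The desaturase Scd1 rose 3.44-fold in WT and 8.72-fold in HuRHep-/- (adjusted p = 0.00192 and 6.98e-05, limma). Srebf1, the gene of SREBP-1, rose 3.33-fold in WT (adjusted p = 0.000646, limma). In HuRHep-/- Srebf1 stood at 141, 165 and 172 CPM in chow and at 626, 482 and 417 CPM in HFCF. Pnpla3, a lipid droplet protein under the control of SREBP-1, rose 3.15-fold in WT and 5.67-fold in HuRHep-/- (adjusted p = 0.016 and 0.00124, limma). Its counts in chow were low, with 11, 12 and 13 in WT and 10, 4 and 6 in HuRHep-/-. Between genotypes 1 of 22 fell in chow, Scd1, by 3.01-fold (adjusted p = 0.026, limma), and 1 rose in HFCF without reaching 1.5-fold.

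PPARalpha is known to induce both Angptl4 and Fgf21. Of 23 other PPARalpha targets, 6 fell and 0 rose in chow, with a median of -0.17, and 3 fell and 0 rose in HFCF, with a median of -0.15. Over all genes 4.23% passed in chow and 6.79% in HFCF, in either direction. The hepatocyte markers had medians of -0.26 and -0.25 in these comparisons, and their part in these values was not tested. In chow these were led by the thioesterase Acot1 (2.62-fold lower, adjusted p = 0.0283 from limma), the pantetheinase Vnn1 (2.2-fold lower, adjusted p = 0.00708), the fatty acid carrier Cd36 (1.97-fold lower, adjusted p = 0.0305) and the peroxisomal enzyme Ehhadh (1.58-fold lower, adjusted p = 0.00756). Angptl4 and Fgf21 did not pass in these comparisons. With diet, 10 rose and 0 fell in WT, and 7 rose and 2 fell in HuRHep-/-. Cidec, a lipid droplet protein, rose 22.1-fold and 40.6-fold (adjusted p = 0.000293 and 7.22e-05, limma). Its log2 fold change in WT was 4.46, and 5.24 without HFCF WT replicate 2. Cd36 rose 3.89-fold and 7.01-fold (adjusted p = 0.000649 and 6.50e-05, limma). Angptl4 did not pass with diet either.

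Angptl6 (ENSMUSG00000038742; chromosome 9, 20873808 to 20879727, minus strand, 6 exons) was a low transcript that rose with the diet. It had 352, 288 and 322 counts in chow WT and 239, 304 and 243 in chow HuRHep-/-. In HFCF it had 503, 458 and 496 counts in WT and 543, 514 and 469 in HuRHep-/-, all above the chow livers. The rise was 1.35-fold in WT (log2 fold change 0.44, SE 0.12, adjusted p = 0.021, limma) and 1.67-fold in HuRHep-/- (log2 fold change 0.74, SE 0.12, adjusted p = 0.000931, limma). In WT the adjusted p was 0.0583, 0.0568 and 0.0807 without chow WT replicate 2 or 3 or HFCF WT replicate 3. The CPM of Angptl6 in chow did not overlap between genotypes, from 9.63 to 11.6 in WT and from 6.93 to 9.41 in HuRHep-/-, but did not pass (log2 fold change -0.42, 95% confidence interval -0.73 to -0.10, adjusted p = 0.127, limma). In HFCF the log2 fold change was -0.14 (95% confidence interval -0.34 to 0.07, adjusted p = 0.339, limma). Angptl6 shares 265 exonic bases, 16.8% of its own, with A230050P20Rik on the opposite strand, which passed in none of the 4 comparisons. Ehhadh (Pearson r = 0.942) and Tmed3 (r = 0.940) were most like it over the 12 libraries.

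Among 17 other angiopoietin-like and lipoprotein lipase genes, 1 rose and 2 fell between genotypes in chow and 0 rose and 1 fell in HFCF, with medians of -0.25 and -0.13. The gene that rose in chow was Lpl, lipoprotein lipase itself, the enzyme that ANGPTL4 and ANGPTL8 inhibit. Lpl stood at 21.7, 20.7 and 16.2 CPM in chow WT and at 74.9, 47.4 and 39 CPM in chow HuRHep-/-, without overlap (2.68-fold, log2 fold change 1.42, SE 0.23, adjusted p = 0.0212, limma). Without chow WT replicate 1 or 3 or HuRHep-/- replicate 2 its adjusted p was 0.0592, 0.0742 and 0.0913 (limma). With diet, 3 rose and 1 fell in WT, and 4 rose and 1 fell in HuRHep-/-. Apoc2, the cofactor of lipoprotein lipase, rose 2.48-fold and 2.89-fold (adjusted p = 0.000271 and 7.25e-05, limma). Angptl2 rose 2.51-fold in HuRHep-/- (adjusted p = 0.00124, limma).

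The fetuin genes lie beside each other on the plus strand of chromosome 16, Ahsg (ENSMUSG00000022868) from 22891277 to 22899449 and Fetub (ENSMUSG00000022871) from 22918334 to 22939778. Fetub was lower in HuRHep-/- and lower on the diet. It had 19189, 19448 and 20178 counts in chow WT and 16058, 16509 and 15515 in chow HuRHep-/-. On HFCF there were 14877, 13669 and 11230 counts in WT and 10435, 9769 and 12522 in HuRHep-/-. In CPM each group was separate from the other of the same diet and of the same genotype. In chow the means were 647 ± 14.3 and 485 ± 23.6 CPM (SD, n = 3 each), a 1.33-fold lower level in HuRHep-/- (log2 fold change -0.41, SE 0.068, adjusted p = 0.0222, limma). In HFCF the means were 389 ± 30.4 and 284 ± 46.6 CPM, a log2 fold change of -0.48 that did not pass (95% confidence interval -0.77 to -0.19, adjusted p = 0.0604, limma). It did in the fit on all 12 libraries (adjusted p = 0.0175, limma). The 8 hepatocyte markers had medians of -0.26 in chow and -0.25 in HFCF in the same comparisons, and their part in the Fetub values was not tested. The chow result did not pass in 4 of the 6 fits without a library, namely without WT replicate 1 or 3 or HuRHep-/- replicate 1 or 2, with adjusted p of 0.0688, 0.0837, 0.0836 and 0.0781 (limma). The difference between diets in the genotype effect was -0.05 (95% confidence interval -0.36 to 0.27). Fetub was 1.67-fold lower in HFCF than in chow in WT and 1.72-fold lower in HuRHep-/- (log2 fold change -0.74 and -0.78, SE 0.10 each, adjusted p = 0.000969 and 0.000367, limma). Its most alike genes were Matr3 (Pearson r = 0.976) and Elk4 (r = 0.973).

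Ahsg fell with the diet in both genotypes. It had 263356, 211580 and 227174 counts in chow WT and 239960, 240768 and 255520 in chow HuRHep-/-, which overlapped. The HFCF livers held 146500, 184275 and 130445 counts in WT and 186557, 187983 and 206868 in HuRHep-/-, all below the chow livers. It was 1.72-fold lower than in chow in WT (log2 fold change -0.78, SE 0.16, adjusted p = 0.00607, limma) and 1.48-fold in HuRHep-/- (log2 fold change -0.56, SE 0.16, adjusted p = 0.0174, limma). In HuRHep-/- the adjusted p was 0.0522, 0.0692 and 0.0538 without chow HuRHep-/- replicate 3 or HFCF HuRHep-/- replicate 1 or 2. The falls of Fetub and Ahsg stand beside the hepatocyte markers, whose medians fell by 0.52 in WT and 0.48 in HuRHep-/- on the log2 scale. Between genotypes the log2 fold change of Ahsg was -0.05 in chow (95% confidence interval -0.38 to 0.28) and 0.15 in HFCF (95% confidence interval -0.27 to 0.56), with adjusted p of 0.871 and 0.61 (limma). The chow interval of Fetub ran from -0.57 to -0.25, and the difference between the fetuins was not tested. Ube2r2 (Pearson r = 0.986) and Paics (r = 0.973) were most like Ahsg. Of 5 other cystatin-superfamily genes tested, 0 passed between genotypes in chow and 1 fell in HFCF, Hrg, histidine-rich glycoprotein, by 1.54-fold (adjusted p = 0.032, limma).

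Lect2 (ENSMUSG00000021539; chromosome 13, 56542464 to 56548502, minus strand) rose with the diet. It had 3109, 2362 and 2844 counts in chow WT and 3378, 3106 and 4035 in chow HuRHep-/-. In HFCF it had 4753, 4564 and 4323 counts in WT and 7407, 6351 and 5676 in HuRHep-/-, each diet group above its chow group. The rise was 1.47-fold in WT (log2 fold change 0.56, SE 0.12, adjusted p = 0.00638, limma) and 1.58-fold in HuRHep-/- (log2 fold change 0.66, SE 0.12, adjusted p = 0.00154, limma). Between genotypes the HFCF groups were separate at 134 ± 7.51 and 167 ± 16.1 CPM (SD, n = 3 each), with a log2 fold change of 0.30 that did not pass (95% confidence interval 0.10 to 0.50, adjusted p = 0.0742, limma). In chow it was 0.22 (95% confidence interval -0.07 to 0.51, adjusted p = 0.328, limma). Palld (Pearson r = 0.958) and Lrrc59 (r = 0.944) were most like it.

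None of the 9 members passed in the test of the genotype by diet interaction. The smallest unadjusted p was 0.0971, for Angptl6, and 0 of the 9 had an unadjusted p under 0.05. Over all 14535 genes 0 passed in limma (background 0%), although 2086 had an unadjusted p under 0.05. With voom weights 1 gene passed. Without HFCF WT replicate 3 the adjusted p passed for 41 genes, 34 of them with at least the fold minimum, and 0 members were among them. The intervals of the members were wide, from -0.36 to 0.27 for Fetub up to -0.49 to 2.92 for Angptl8 on the log2 scale.

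Of 17 receptors and proteases of these proteins tested in chow, 0 passed between genotypes (background 4.23%), and of 18 in HFCF 0 rose and 1 fell, by less than 1.5-fold (background 6.79%). With diet, 2 rose (background 11.3%) and 6 fell (background 12.8%) in WT, and 4 rose (background 19.7%) and 6 fell (background 19.1%) in HuRHep-/-. Klb, which encodes the beta-Klotho coreceptor of FGF21, fell 1.72-fold in HuRHep-/- (adjusted p = 0.00125, limma), while Fgf21 rose. In WT Klb was not called, at 18.3, 14.2 and 19.3 CPM in chow and 11.6, 13.9 and 11.2 CPM in HFCF. Fgfr1, an FGF receptor, fell 1.95-fold in WT (adjusted p = 0.0291, limma) and did not pass in 4 of the 12 fits without a library. Acvr2b, an activin receptor, fell 2.28-fold in WT and 2.04-fold in HuRHep-/- (adjusted p = 0.00367 and 0.00429, limma), while Inhbe passed as higher in HuRHep-/- alone. Among activin and follistatin genes, 2 of 11 rose and 0 fell between genotypes in chow, led by Fst, follistatin, at 2.12-fold (adjusted p = 0.04, limma), which did not pass with voom weights. In HFCF 1 of 11 rose, Fstl1, at 2.36-fold (adjusted p = 0.0458, limma). With diet 0 rose and 3 fell in WT, with Inhba 2.1-fold lower (adjusted p = 0.0094, limma), and 2 rose and 2 fell in HuRHep-/-, with Inhbb 3.22-fold higher (adjusted p = 0.0167, limma).

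Other secreted liver factors gave a mixed picture. Of 22 tested, 3 rose and 2 fell between genotypes in chow, and 1 rose and 1 fell in HFCF. Lcn2, the siderophore-binding protein lipocalin-2, was 8.39-fold higher in chow HuRHep-/- (log2 fold change 3.07, SE 0.55, adjusted p = 0.0286, limma), with a log2 fold change of 3.66 without chow HuRHep-/- replicate 3. With diet Lcn2 rose 7.24-fold in WT (log2 fold change 2.86, adjusted p = 0.00615, limma), and the log2 value was 2.23 without HFCF WT replicate 3. Neither difference of Lcn2 passed with voom weights, and the one in chow did not pass without WT replicate 1 or 3 or HuRHep-/- replicate 1 or 2. Fgl1, a fibrinogen-like hepatokine, was 2.87-fold higher in chow HuRHep-/- (adjusted p = 0.0219, limma), and Itih3, a hyaluronan-binding plasma protein, was 2.48-fold higher in chow and 1.81-fold higher in HFCF (adjusted p = 0.00801 and 0.0246, limma). Tsku, tsukushi, was 2.58-fold lower in HFCF HuRHep-/- (adjusted p = 0.0169, limma). With diet, 2 rose and 3 fell in WT, and 7 rose and 7 fell in HuRHep-/-, led by Gpnmb, a gene of lipid-laden macrophages, at 40-fold and 28.6-fold (adjusted p = 0.00486 and 0.00452, limma). The size for Gpnmb rested on single libraries. In WT its log2 fold change of 5.32 became 6.39 without HFCF WT replicate 2 and 4.44 without replicate 3, and it did not pass with voom weights. In HuRHep-/- the log2 fold change of 4.84 for Gpnmb became 6.00 without chow HuRHep-/- replicate 1 and 4.02 without replicate 2. Fgl1 fell 2.65-fold with diet in HuRHep-/- (adjusted p = 0.00188, limma).

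**Figure D5:**
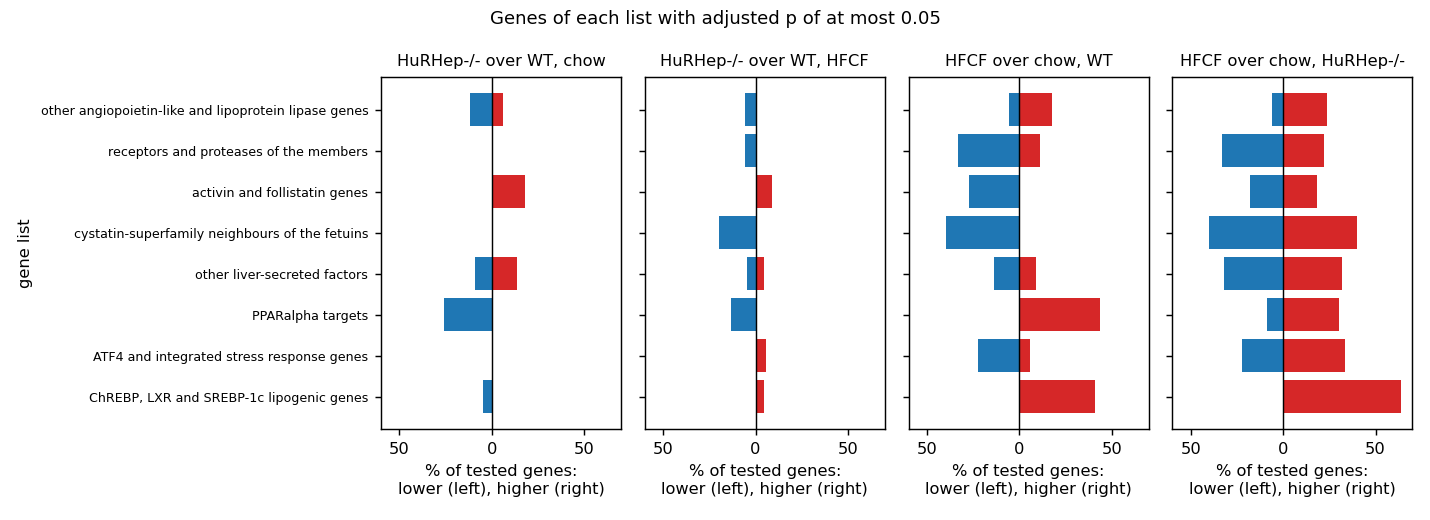
Share of the tested genes of each list with an adjusted p of at most 0.05 in the 4 comparisons, with higher genes drawn to the right and lower genes to the left, in percent. With diet, 9 of 22 lipogenic genes rose in WT and 14 in HuRHep-/-, and 0 passed as lower.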

How the data were processed

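RNA was extracted from 12 mouse liver samples, with integrity numbers above 6, and libraries were made with a stranded kit. Per the study's methods, the authors used CLC Genomics Workbench to align reads with GRCm38.p6, on the reverse strand, and deposited counts per gene without normalization, in a table of 6 libraries for each diet. The values are text with commas, so their unit was recorded as other. The commas were removed, 0 values were other than whole, and the count test of the design was replaced by limma 3.58.1 in R 4.3.3 on log2 CPM with a pseudocount of 0.5 and TMM factors. Genes were kept with the equivalent of 10 counts in 3 or more libraries and a total of 15. Genotypes were compared within each table, over 13526 and 14295 genes. Diets and the interaction were fitted over 12 libraries and 14535 of the 20093 genes in both tables. P-values were adjusted by Benjamini-Hochberg, and fold changes are on the log2 scale with the pseudocount. Calls also needed 1.5-fold and 10 counts in each group, after the study's criteria.

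The members, lists and tests were chosen with earlier results of these data known. Named genes were the 9 members, Elavl1, at most 4 called genes of largest fold change per list and comparison, and the 2 genes with the highest Pearson r to each member among those with a mean count of at least 100. Dnaic1, Gm12406, Inhbc, A230050P20Rik and the fat cell markers were named after their values were seen. The fits were run on simulated counts, whose spread was set by hand and not taken from these libraries. That run checks the code and not the power for these genes. Positions, exonic lengths and 3' UTRs came from GENCODE M21, promoters from RefSeq. The study describes the chow libraries as separate mice. For HFCF the sources used here do not say so, and p-values then measure the spread between libraries, which may be technical. An exact permutation test of 3 against 3 cannot go below p = 0.1. Also tried were upper-quartile and RLE factors, different filters, a pseudocount of 2, voom weights, the replicate number as a block, other sets of libraries, no fold minimum and leaving out each library. The same alternatives for genes outside the members were added after the data were seen. The CLC test was not used.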

Additional observations from a re-analysis of the deposited data

How the results depend on the processing

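The number of members called did not change under RLE factors, a pseudocount of 2, voom weights or a minimum of 10 counts per library in any of the 5 comparisons. It was 5 between diets in WT with upper-quartile factors and 7 in HuRHep-/- without a filter. Without the fold minimum it was 2 in chow between genotypes, and 6 in WT and 7 in HuRHep-/- between diets. With each library left out, it ran from 4 to 5 between diets in WT and from 5 to 8 in HuRHep-/-. Between genotypes it ran from 0 to 1 in chow and from 0 to 1 in HFCF, where 8 genes of all were called without chow HuRHep-/- replicate 2 and 28 without HFCF HuRHep-/- replicate 1, beside 303 and 517. Over all genes, calls between genotypes in HFCF numbered 745 in the fit on 12 libraries. Directions reversed without some library for log2 fold changes that had not passed. These ran from -0.10 to 0.04 for Ahsg between genotypes in chow, from -0.09 to 0.48 for Fgf21 between genotypes in HFCF, and from -0.84 to 0.07 for Angptl4 and -0.01 to 0.82 for Angptl8 between diets in HuRHep-/-. In the interaction they ran from -0.53 to 0.09 for Fgf21, from -0.18 to 0.03 for Fetub and from -0.67 to 0.25 for Angptl4. The cause was not tested. Of 104 results for genes outside the members 0 reversed, 20 did not pass in some setting that kept all libraries and 41 without some library. In the interaction 1 gene passed with voom weights and 1 without the filter, and neither was a member. Same-numbered libraries share only a number. With the replicate number as a block, 1, 1, 4, 6 and 0 members were called in the 5 comparisons, the same as without it, all genes called between genotypes in HFCF numbered 764, and Angptl8 passed there (adjusted p = 0.0201, limma).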

Other observations

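Gdf15, a stress-induced hormone of liver and other tissues that was among the other secreted factors, was looked at after the values were known. It stood at 48.5, 13.6 and 37.2 CPM in chow WT and at 24.9, 30 and 39.4 CPM in chow HuRHep-/-. In HFCF it stood at 90.1, 40 and 44 CPM in WT and at 89.9, 53.3 and 70.7 CPM in HuRHep-/-. The highest Gdf15 library was also the highest in Angptl8 and Fgf21 in each group but chow HuRHep-/-, where Fgf21 stood at 2.67, 1.95 and 1.69 CPM and Angptl8 at 33.7, 16.8 and 23.4 CPM.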
